A study of Mus musculus with 12 samples.

Results

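Ion channel genes were followed in mouse bone marrow-derived macrophages (BMDMs) treated with activin A. The members are the protein-coding genes whose symbols begin as those of potassium channels (Kcn), transient receptor potential (TRP) channels of the A, C, M and V families, mucolipins, calcium (Cacn) and sodium (Scn) channel subunits, chloride channels (Clcn and Clic), LRRC8 proteins, anoctamins, Piezo channels, the proton channel Hvcn1, the IP3 receptors, and the Orai and Stim genes. The pattern holds pore-forming subunits and also their regulatory partners. It selected 85 of the 18376 genes in the table, and 67 of the 85 averaged 5 or more normalized counts across the 12 libraries and were tested among 14318 genes.

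The question of the study was whether activin A regulates macrophages in inflammation and fibrosis. BMDMs are macrophages grown in vitro, here from bone marrow of adult male wild-type C57BL6/J mice. Every group received M-CSF, the growth factor that drives macrophage differentiation, at 50 ng/ml, and was harvested on day 6. CTRL cells received nothing further, Act cells 50 ng/ml human recombinant activin A, FST cells 250 ng/ml FST288, and Act+FST cells both agents at these doses, with 3 libraries in each group. FST288 is a follistatin isoform that captures activin A before it can reach its receptors. The labels number the replicates from 1 to 3 and do not say whether they came from separate mice or cultures, so the p-values measure the spread between these libraries, which may be technical.

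Ion channels let ions pass through a membrane along their electrochemical gradient. In macrophages, potassium channels hold the membrane potential, and that potential sets the driving force for calcium entry through Orai and TRP channels. The proton channel balances the charge that the NADPH oxidase moves during the respiratory burst, chloride transporters and mucolipins serve endosomes and lysosomes, and LRRC8 channels release anions when cells swell. Many of these genes, above all the voltage-gated calcium and sodium channel subunits, are best known from nerve and muscle.

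The libraries carried the signature of macrophages. The 8 macrophage markers, among them Adgre1, Csf1r and Cd68, summed to normalized counts of 11403 to 12394 in CTRL and 11653 to 12245 in Act, and 1 of the 8, Cd14, was called different between these groups, by a log2 difference of 0.23 (SE 0.07, adjusted p = 0.0259). Neutrophil markers summed to 1258 to 1627 in CTRL and 1002 to 1556 in Act, with Elane and Mpo lower in Act and the other 6 not called. Stromal markers summed to 25 to 77 in CTRL and 55 to 251 in Act, mast cell and basophil markers to 37 to 66 and 12 to 41 (Kit was lower in Act), dendritic cell markers to 59 to 142 and 109 to 164, osteoclast markers to 290 to 629 and 340 to 493 (Acp5 was higher and Ctsk lower in Act), and T and B cell markers to 6 to 25 and 8 to 21. Mcpt8, Ms4a2 and Cpa3, which define mast cells and basophils, reached at most 9 normalized counts in any library, and Cd3d at most 3. The high stromal sum belonged to Act replicate 1, in which Col1a1 stood at 83 and Col1a2 at 109. When blocked by replicate, Col1a2 (adjusted p = 0.000473) and Pdgfrb (0.0255) of the stromal markers and Siglech (0.0111) and Flt3 (0.0209) of the dendritic cell markers were also higher in Act than in CTRL, and Dcstamp (6.93e-05) of the osteoclast markers was lower. What part these other cells had in the channel results was not tested. In bulk RNA, a change in the number of cells of a type cannot be told apart from a change in RNA per cell.

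In control macrophages the tested ion channel genes spanned from 0.612 to 379 normalized counts per kilobase of exon. The highest CTRL means per kb were those of Clic1 (379), a chloride intracellular channel protein, Clcn7 (292), the lysosomal chloride-proton exchanger, and Hvcn1 (253), the voltage-gated proton channel. They were followed by Trpv2 (225), a cation channel with a role in phagocytosis, the background potassium channel gene Kcnk6 (209), the store-operated channel gene Orai3 (204), Clic4 (189), the endolysosomal channel gene Mcoln2 (185) and Piezo1 (162), the mechanically gated channel. The members that rose most with activin A were low in CTRL, with 0.658 for Kcnip3, 0.612 for Kcnq3, 1.67 for Ano7 and 4.82 for Kcnj9. The largest falls were those of Kcnq1, at 10.1 per kb in CTRL, and Cacna1b, at 4.69. Kcnj10, which stood at 30.1 per kb in CTRL, reached 149 in Act.

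**Figure D1:**
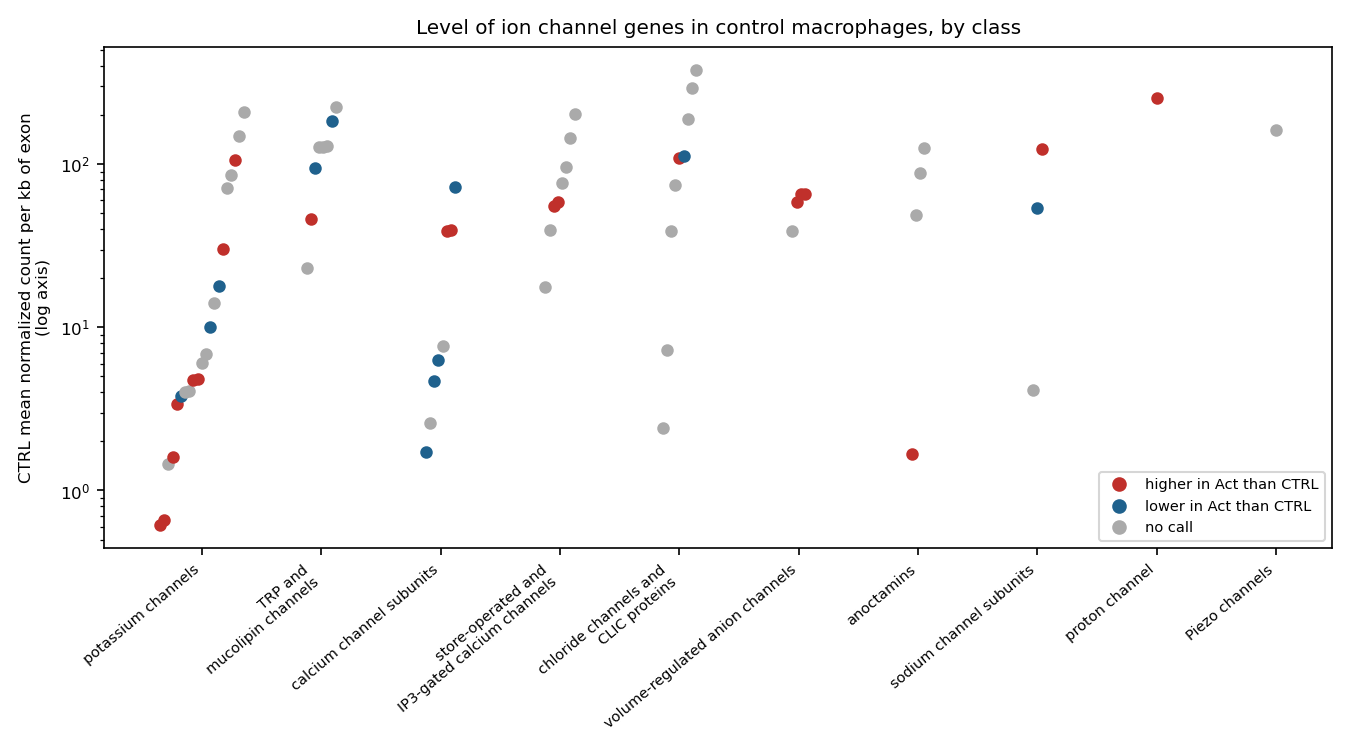
Level of the 67 tested ion channel genes in CTRL, by class (mean normalized count per kb of exon over 3 libraries, log axis), each point 1 gene, coloured by the call of Act versus CTRL. Clic1 (379) is the highest point, and the 4 lowest points are potassium channel genes, among them Kcnip3 (0.658) and Kcnq3 (0.612), which were higher in Act.

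Activin A raised and lowered sets of ion channel genes in the same cultures. Of the 67 tested members, 20 were higher in Act than in CTRL (29.9% of the 67, against 10.3% of all tested genes), and 11 were lower (16.4% against 9.97%), where a call is an adjusted p (Benjamini-Hochberg) of at most 0.05. Called genes that also differed 2-fold or more are named DEGs here. There were 9 member DEGs higher in Act (13.4% against 2.58% of all tested genes), among them Kcnip3, Kcnj9, Kcnq3, Ano7, Kcna3, Kcnj10, Kcnd1 and Trpm2. The 5 DEGs lower in Act were Kcnq1, Cacna1b, Cacna2d4, Mcoln3 and Kcnab1 (7.46% against 3.09%). The median log2 difference was −0.01 over the members and 0.00 over all tested genes, while the median of its absolute value was 0.31 and 0.14. Differences here are of log2(normalized count + 1), a scale that shrinks the change of low genes. In each of the 31 called members, no Act library overlapped with a CTRL library. This is no evidence apart from the calls themselves, and the share among all called genes was not computed.

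Most DEGs were genes of low level. Of the 24 members with a mean normalized count from 5 to under 100, 11 were DEGs (45.8%, against 12.2% of all genes in that range). Of the 24 members with a mean of 500 or more, Trpm2 was the only DEG (4.17% against 0.857%). One member, Kcnip3, passed the filter on the mean only through its Act libraries. The counts describe the members, and the excess over all genes was not tested.

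**Figure D2:**
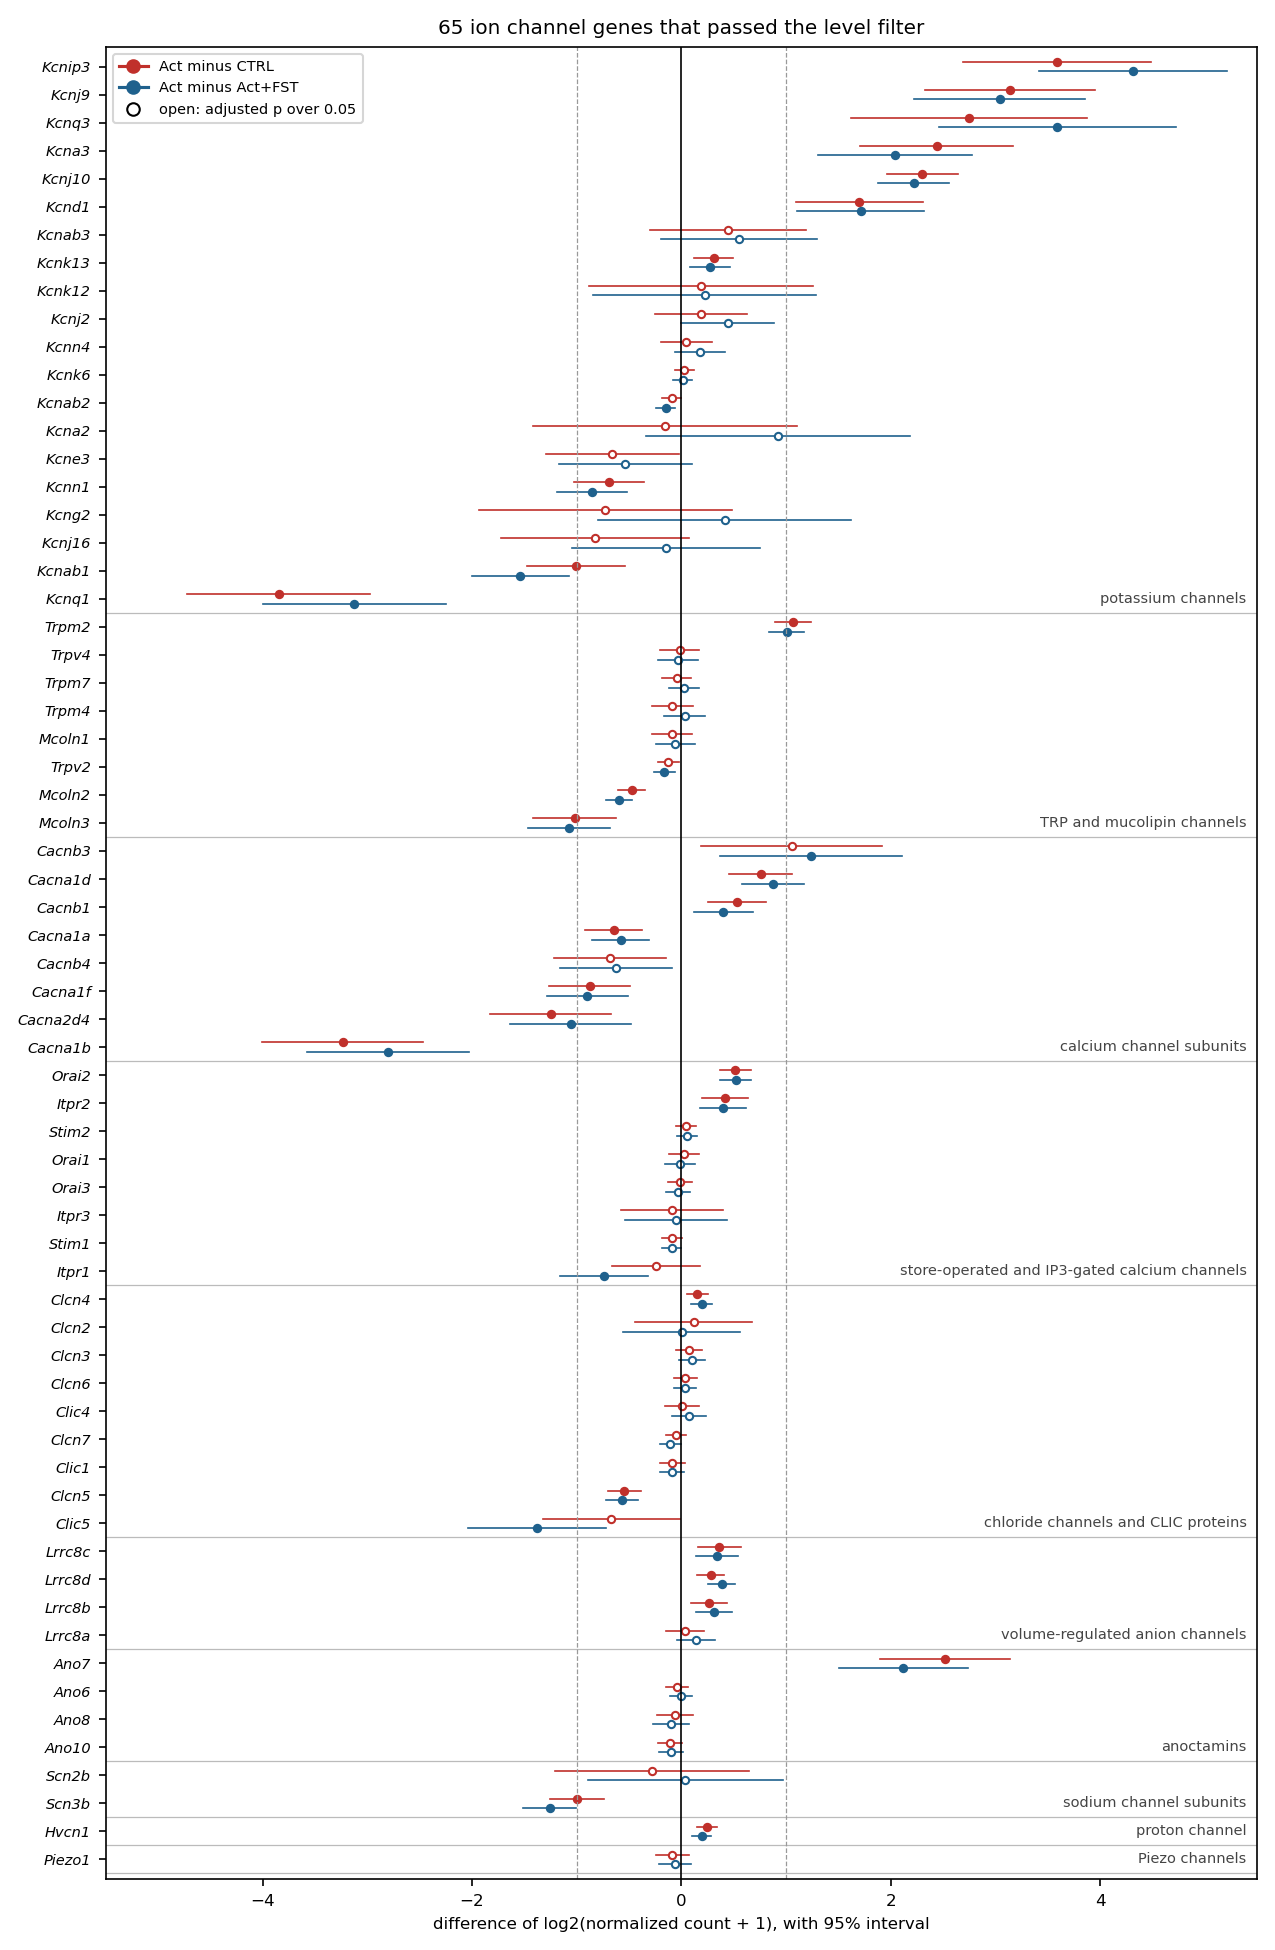
Difference of log2(normalized count + 1) of Act minus CTRL (red) and of Act minus Act+FST (blue) with its 95% interval for 65 of the 67 tested ion channel genes, by class, with filled points at an adjusted p of at most 0.05 and dashed lines at 2-fold. Potassium channel genes hold both ends of the plot (Kcnip3 at 3.59 and Kcnq1 at -3.85 in Act minus CTRL), and the points of Orai1, Orai3, Stim1, Stim2, Clcn7, Clic1 and Clic4 lie close to 0.

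The 3 largest rises were in potassium channel genes, where 8 of the 21 tested members were higher in Act than in CTRL (38.1%, against 10.3% of all tested genes) and 3 were lower (14.3% against 9.97%). Kcnj10 (ENSMUSG00000044708, chr1:172341210-172374085, plus strand, in GRCm38 as all coordinates here) encodes the inwardly rectifying channel Kir4.1 that is known from astrocytes. Its normalized counts were 184, 166 and 138 in CTRL, 889, 813 and 712 in Act, 213, 171 and 138 in Act+FST and 165, 140 and 126 in FST. All Act libraries lay above all others, by a log2 difference to CTRL of 2.30 (SE 0.16, adjusted p = 1.66e-06), a 4.94-fold rise, and by 2.22 (SE 0.16, adjusted p = 2.05e-06) to Act+FST. Kcnj9 (ENSMUSG00000038026, chr1:172320501-172329318, minus strand) encodes Kir3.3, a subunit of channels opened by G proteins. It had 22, 30 and 10 in CTRL, 144, 205 and 180 in Act, 18, 29 and 16 in Act+FST and 12, 21 and 10 in FST. The lowest Act library was more than 4 times the highest of the other groups, and the log2 difference was 3.14 (SE 0.38, adjusted p = 9.55e-05) to CTRL and 3.04 (SE 0.38, adjusted p = 0.000122) to Act+FST.

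The voltage-gated potassium channel genes that rose were low without activin A. Kcna3 (ENSMUSG00000047959, chr3:107036169-107038070, plus strand) encodes Kv1.3, the delayed rectifier of lymphocytes and macrophages. It was counted at 9, 11 and 7 in CTRL, 62, 44 and 53 in Act, 21, 8 and 10 in Act+FST and 14, 8 and 9 in FST. The log2 difference was 2.44 (SE 0.34, adjusted p = 0.000291) to CTRL and 2.05 (SE 0.34, adjusted p = 0.00099) to Act+FST, where replicate 1 was the highest. Kcnq3 (ENSMUSG00000056258, chr15:65986387-66286642, minus strand), a subunit of the M-current channels of neurons, went from 8, 11 and 8 in CTRL to 56, 67 and 75 in Act, with 11, 1 and 6 in Act+FST and 12, 6 and 13 in FST. Act stood apart from each of the other groups, by 2.75 (SE 0.52, adjusted p = 0.00254) from CTRL and 3.59 (SE 0.52, adjusted p = 0.000396) from Act+FST. Kcnd1, which encodes the A-type channel Kv4.1, had 20, 23 and 11 in CTRL, 58, 53 and 64 in Act, 22, 16 and 14 in Act+FST and 17, 14 and 11 in FST. Its log2 difference was 1.70 (SE 0.28, adjusted p = 0.000991) to CTRL and 1.71 (SE 0.28, adjusted p = 0.000903) to Act+FST.

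Kcnip3 encodes a calcium-binding protein, also named DREAM or calsenilin, that binds Kv4 channels and acts as a transcriptional repressor. It showed the largest rise of any member, with 3, 2 and 2 in CTRL, 35, 45 and 37 in Act, 1, 1 and 1 in Act+FST and 2, 0 and 2 in FST. The log2 difference was 3.59 (SE 0.41, adjusted p = 6.99e-05) to CTRL and 4.31 (SE 0.41, adjusted p = 1.74e-05) to Act+FST, on values that were at most 3 outside Act. With such low values the size hangs on the pseudocount, and against CTRL it was 3.81 with a pseudocount of 0.5 and 2.58 with one of 5. Kcnip3 passed the filter on the mean only through its Act libraries. Its adjusted p-values, also that of the interaction given below, carry that selection and are no separate support.

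Kcnq1 moved the other way. It encodes Kv7.1, the slow repolarizing channel of heart and epithelia, and lies at chr7:143106362-143427042, plus strand. Normalized counts were 51, 42 and 31 in CTRL, 1, 2 and 3 in Act, 47, 21 and 14 in Act+FST and 53, 40 and 33 in FST. Act was close to 0 and separate from every other library, and the log2 difference was -3.85 (SE 0.40, adjusted p = 3.32e-05) to CTRL and -3.12 (SE 0.40, adjusted p = 0.000171) to Act+FST, where the libraries themselves ranged more widely than in CTRL. Against CTRL the difference was -4.12 with a pseudocount of 0.5 and -2.71 with one of 5. Genes on the opposite strand overlap with 2.96% of its exon bases. Kcnab1, a cytoplasmic beta subunit of Kv1 channels, had 35, 30 and 33 in CTRL, 23, 13 and 13 in Act, 48, 46 and 49 in Act+FST and 39, 32 and 39 in FST. It fell by 1.00 (SE 0.21, adjusted p = 0.00539) against CTRL on the log2 scale and by 1.54 (SE 0.21, adjusted p = 0.00029) against Act+FST, and the first of these went under 2-fold without Act replicate 2 (-0.87), Act replicate 3 (-0.87), CTRL replicate 1 (-0.95) or, by less than the last digit shown, CTRL replicate 3. Kcnn1, a small-conductance calcium-activated channel gene, fell by 0.69 (SE 0.15, adjusted p = 0.00684) against CTRL.

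**Figure D3:**
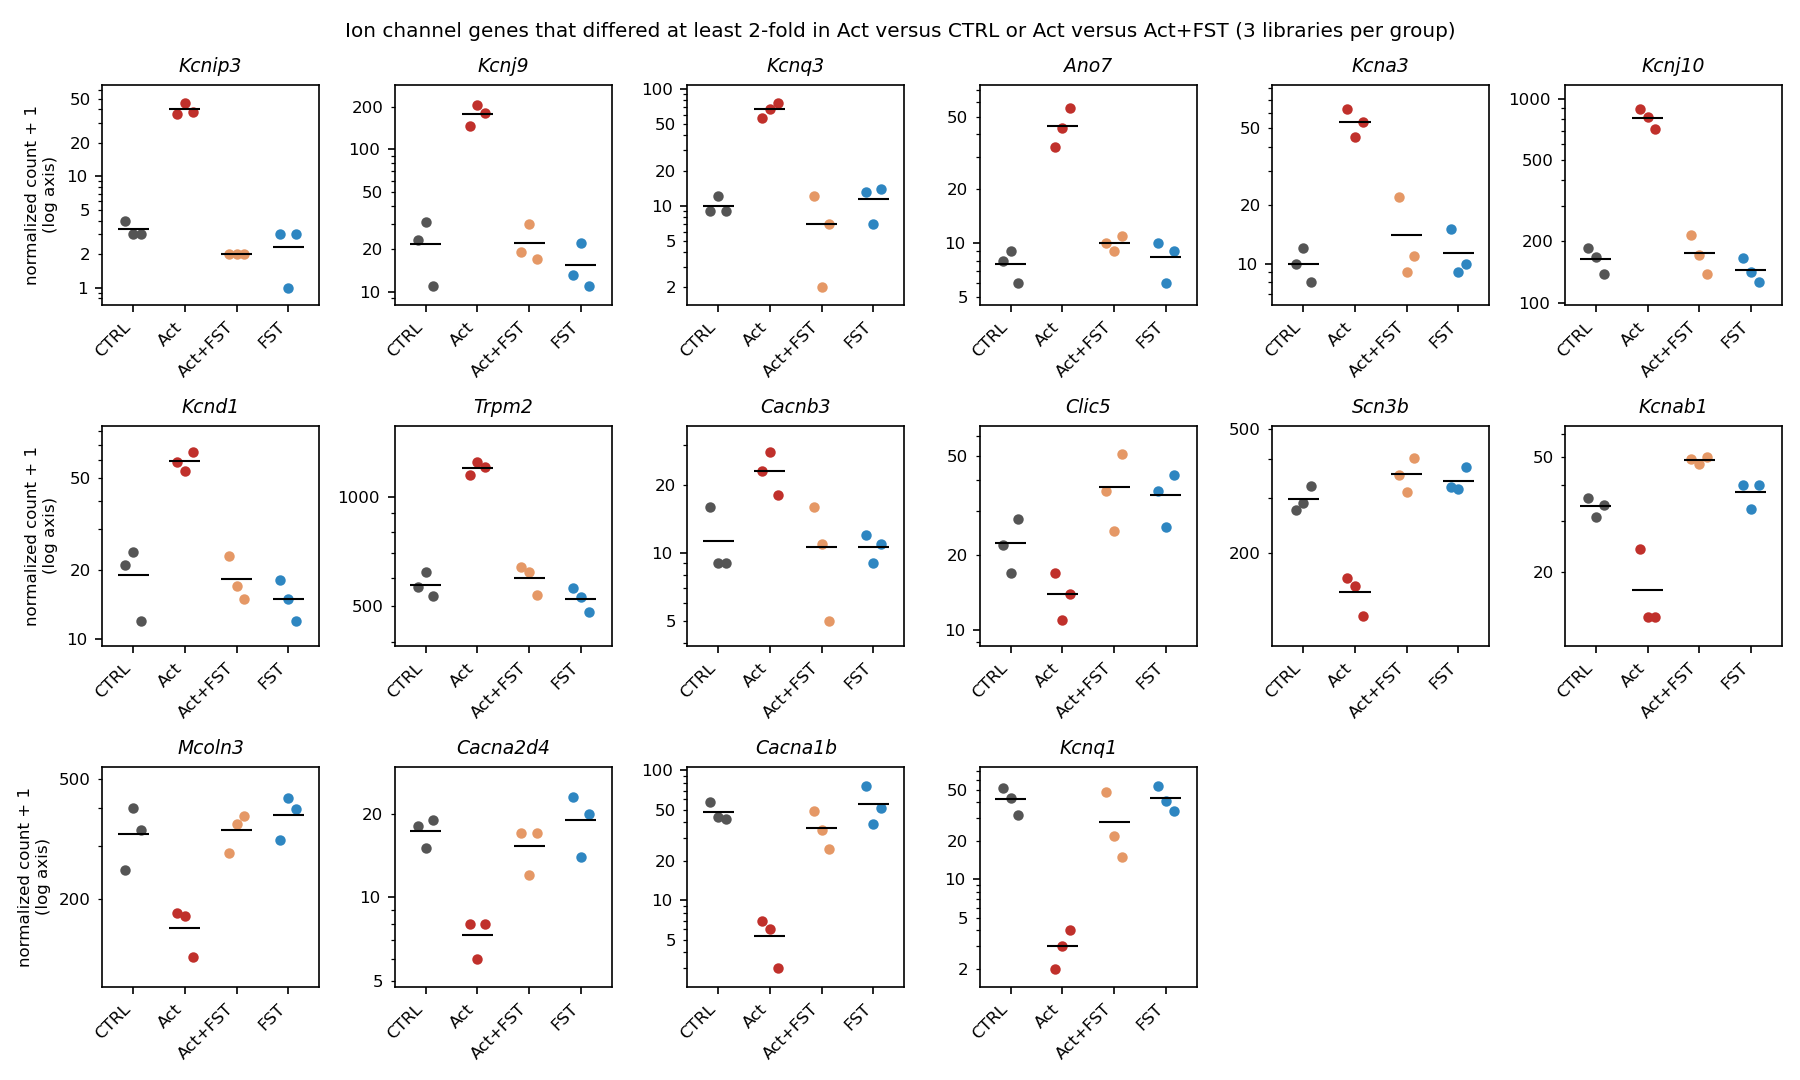
Normalized counts plus 1 (log axis) of 16 ion channel genes that were DEGs of Act versus CTRL or of Act versus Act+FST, 1 point per library and a line at the group mean. In the genes that rose, from Kcnip3 to Cacnb3, every Act library is above the other groups, and in those that fell every Act library is below them except in Clic5, where the lowest CTRL library (16) equals the highest Act library.

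Potassium channel genes that macrophages express at higher level changed little. Kcnk6, of the K2P family of background channels, stood at 911, 830 and 861 in CTRL and 879, 880 and 896 in Act. Its log2 difference of 0.03 (SE 0.04, adjusted p = 0.682) had a 95% interval of -0.06 to 0.12. Kcnk13, also of the K2P family and known as THIK-1 in microglia, went from 356, 322 and 314 to 421, 433 and 376, by 0.31 (SE 0.09, adjusted p = 0.024). This call was lost (adjusted p in parentheses) without Act replicate 1 (0.0765), Act replicate 2 (0.0934), CTRL replicate 2 (0.0757) or CTRL replicate 3 (0.0928), and the call against Act+FST, of 0.28 (SE 0.09, adjusted p = 0.0388), without Act replicate 1 (0.111), Act replicate 2 (0.137), Act+FST replicate 2 (0.148), Act+FST replicate 3 (0.0506), CTRL replicate 2 (0.0506) or FST replicate 3 (0.0517). With all libraries and the replicate block, the adjusted p of Kcnk13 against CTRL was 0.00351 (limma). Kcnn4, the calcium-activated channel KCa3.1 of immune cells, was not called (interval -0.19 to 0.29). Kcnab2, a beta subunit, was lower in Act than in Act+FST by 0.15 (SE 0.04, adjusted p = 0.0204), not called against CTRL at -0.09 (SE 0.04, adjusted p = 0.149), and lost its call without Act replicate 2 (0.0697), Act replicate 3 (0.055) or Act+FST replicate 3 (0.093).

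Kcnj2, which encodes Kir2.1, the main inward rectifier of macrophages, depended on the pairing of libraries. Its normalized counts were 494, 341 and 327 in CTRL, 549, 401 and 370 in Act, 406, 287 and 277 in Act+FST and 458, 311 and 347 in FST. Replicate 1 was the highest in every group, and within each replicate number Act was above CTRL and Act+FST. Without regard to the replicate number Act differed from CTRL by 0.19 (SE 0.20, adjusted p = 0.592), and with the replicate number as a block the adjusted p was 0.0123 against CTRL and 1.48e-05 against Act+FST. Kcnj16, its neighbour on chromosome 11, differed from CTRL by -0.83 (SE 0.41, adjusted p = 0.193), with an adjusted p of 0.0277 with the block and of 0.0475 without CTRL replicate 3.

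Promoter sequences are shown for 5 DEGs, the neighbouring pair Kcnj9 and Kcnj10 that rose together, Kcna3 and Trpm2 that rose, and Cacna1b that fell. RefSeq promoter entries (build GRCm38.p6) were found by symbol for 67 of the 85 members, 93 entries in all, and none of the 5 windows overlaps an annotated exon, that of Trpm2 lying between exons inside the gene and the others upstream of the gene. The windows are the 250 bases before the start, at chr1:172329323-172329572 (minus strand) for Kcnj9, chr1:172340960-172341209 (plus strand) for Kcnj10, chr3:107035912-107036161 (plus strand) for Kcna3, chr10:77969873-77970122 (minus strand) for Trpm2 and chr2:24763153-24763402 (minus strand) for Cacna1b. They are written 5′ to 3′ on the strand of the gene, with capitals for the letters CAGAC or their reverse complement GTCTG, the core of the element that SMAD3 and SMAD4, the transcription factors of the activin pathway, are known to bind.
Kcnj9: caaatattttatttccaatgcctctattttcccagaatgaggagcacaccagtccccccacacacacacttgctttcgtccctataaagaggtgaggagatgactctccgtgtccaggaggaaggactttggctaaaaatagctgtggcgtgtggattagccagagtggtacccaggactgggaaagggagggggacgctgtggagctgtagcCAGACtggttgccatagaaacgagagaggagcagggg
Kcnj10: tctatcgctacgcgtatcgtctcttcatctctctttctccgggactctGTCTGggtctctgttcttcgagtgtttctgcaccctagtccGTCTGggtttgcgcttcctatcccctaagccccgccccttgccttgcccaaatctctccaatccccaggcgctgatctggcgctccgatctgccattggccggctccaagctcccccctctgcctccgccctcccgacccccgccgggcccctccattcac
Kcna3: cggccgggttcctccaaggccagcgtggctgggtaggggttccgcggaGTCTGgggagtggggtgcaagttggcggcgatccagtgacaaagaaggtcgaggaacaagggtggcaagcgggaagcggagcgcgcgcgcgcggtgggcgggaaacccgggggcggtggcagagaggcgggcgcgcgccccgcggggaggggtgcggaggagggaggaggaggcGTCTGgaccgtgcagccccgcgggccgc
Trpm2: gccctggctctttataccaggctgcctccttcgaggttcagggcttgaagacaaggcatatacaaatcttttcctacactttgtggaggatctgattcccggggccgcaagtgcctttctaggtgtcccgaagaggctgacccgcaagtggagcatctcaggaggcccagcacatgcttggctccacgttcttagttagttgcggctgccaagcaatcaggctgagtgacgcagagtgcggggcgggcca
Cacna1b: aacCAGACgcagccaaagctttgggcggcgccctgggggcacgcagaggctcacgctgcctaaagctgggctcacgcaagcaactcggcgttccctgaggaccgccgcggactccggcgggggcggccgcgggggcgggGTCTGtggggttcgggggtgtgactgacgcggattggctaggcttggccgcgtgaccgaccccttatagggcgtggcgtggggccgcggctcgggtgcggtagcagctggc
The letters occur once in the window of Kcnj9, at 2 places in those of Kcnj10, Kcna3 and Cacna1b, and at none in that of Trpm2. They are common, since 42.2% of the 32851 promoter entries in the table hold them on either strand, as do 48.4% of the 93 entries of members. Among entries of members higher in Act than in CTRL 14 of 21 held them, among those lower 8 of 11, among those not called 18 of 43, and among those under the filter 5 of 18, where several entries can belong to 1 gene. The AP-1 element TGAGTCA was in 3 of the 93 entries (3.23%, against 4.46% of all) and the PU.1 element GAGGAAGT in 5 (5.38% against 2.44%), each searched on both strands. A match describes the letters and not a bound site.

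TRP and mucolipin channels differed by member, with 1 of 8 tested genes higher in Act than in CTRL (12.5%, against 10.3% of all tested genes) and 2 lower (25.0% against 9.97%). Trpm2 (ENSMUSG00000009292, chr10:77907722-77970563, minus strand) encodes a calcium-permeable channel opened by ADP-ribose and oxidative stress. Normalized counts were 564, 622 and 533 in CTRL, 1148, 1247 and 1208 in Act, 639, 621 and 537 in Act+FST and 559, 531 and 480 in FST. No Act library was under 1148 and none of the others above 639, with a log2 difference of 1.07 (SE 0.08, adjusted p = 2.49e-06) to CTRL and 1.01 (SE 0.08, adjusted p = 3.94e-06) to Act+FST. The difference to Act+FST sat near 2-fold and went under it without Act replicate 2 (0.98) or Act+FST replicate 3 (0.93). Mcoln3 and Mcoln2 encode TRPML3 and TRPML2, cation channels of endosomes and lysosomes. Mcoln3 had 250, 398 and 338 in CTRL, 179, 175 and 128 in Act, 284, 353 and 376 in Act+FST and 313, 429 and 396 in FST, with a log2 difference of -1.02 (SE 0.18, adjusted p = 0.00171) to CTRL and -1.07 (SE 0.18, adjusted p = 0.00117) to Act+FST. It went under 2-fold against CTRL without Act replicate 3 (-0.86), CTRL replicate 2 (-0.87) or CTRL replicate 3 (-0.99), and against Act+FST without Act replicate 3 (-0.92) or Act+FST replicate 3 (-0.99). Mcoln2 had 576, 627 and 624 in CTRL, 445, 408 and 463 in Act, 624, 666 and 698 in Act+FST and 622, 624 and 661 in FST, with no Act library above 463 and none of the others under 576. Its log2 difference was -0.47 (SE 0.06, adjusted p = 0.000125) to CTRL and -0.60 (SE 0.06, adjusted p = 2.11e-05) to Act+FST.

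The third mucolipin, Mcoln1, which encodes the lysosomal calcium release channel TRPML1, stood at 885, 1023 and 1023 in CTRL and 873, 924 and 956 in Act and was not called (interval of the log2 difference -0.28 to 0.10). Neither were the mechano- and osmosensitive Trpv4 (-0.21 to 0.17), the channel kinase Trpm7 (-0.18 to 0.10) and the calcium-activated Trpm4 (-0.28 to 0.11). Trpv2 had 996, 1000 and 1031 in CTRL, 958, 905 and 915 in Act, 1008, 1001 and 1102 in Act+FST and 1018, 1001 and 1063 in FST. Its Act libraries were the lowest of all, with a log2 difference of -0.12 (SE 0.05, adjusted p = 0.0737) against CTRL and -0.16 (SE 0.05, adjusted p = 0.0217) against Act+FST. Against CTRL it was called with the replicate block (adjusted p = 0.0197) or without Act+FST replicate 3 (0.0428), or with quantile normalization (0.0369), and against Act+FST the call was lost without Act replicate 2 (0.0831), Act replicate 3 (0.0706) or Act+FST replicate 3 (0.0973).

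Of the 8 tested voltage-gated calcium channel subunits, 2 were higher in Act than in CTRL (25.0%, against 10.3% of all tested genes) and 4 lower (50.0% against 9.97%). Cacna1b (ENSMUSG00000004113, chr2:24603887-24763152, minus strand), the pore of the neuronal N-type channel, had 56, 43 and 41 in CTRL, 6, 5 and 2 in Act, 48, 34 and 24 in Act+FST and 75, 38 and 50 in FST. The mean was 46.7 ± 8.14 (SD, n = 3) in CTRL and 4.33 ± 2.08 in Act, with a log2 difference of -3.24 (SE 0.36, adjusted p = 5e-05) to CTRL and -2.80 (SE 0.36, adjusted p = 0.000152) to Act+FST. Cacna2d4, an auxiliary subunit known from the retina, fell by 1.25 (SE 0.27, adjusted p = 0.00543) against CTRL, from 17, 14 and 18 to 7, 5 and 7. Against Act+FST it fell by 1.06 (SE 0.27, adjusted p = 0.0127), a call that was lost without Act replicate 2 (0.0536) and a fold that went under 2 without Act+FST replicate 1 (-0.98) or Act+FST replicate 3 (-0.98). Cacna1a, the pore of P/Q-type channels and the most abundant calcium channel subunit gene per length in CTRL (72.5 per kb), went from 894, 745 and 846 to 625, 490 and 479, a log2 difference of -0.65 (SE 0.13, adjusted p = 0.00295). Cacna1f, the L-type pore of photoreceptors, fell by 0.88 (SE 0.18, adjusted p = 0.00419).

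In the other direction, Cacna1d, the pore of the L-type channel Cav1.3, had 567, 440 and 472 in CTRL, 907, 818 and 769 in Act, 565, 406 and 400 in Act+FST and 549, 427 and 447 in FST. The lowest Act library was above the highest of any other group, by 0.76 (SE 0.14, adjusted p = 0.00197) against CTRL and 0.88 (SE 0.14, adjusted p = 0.00071) against Act+FST. Cacnb1 and Cacnb3 encode beta subunits that bring pores to the membrane. Cacnb1 went from 158, 221 and 160 in CTRL to 243, 244 and 287 in Act, by 0.53 (SE 0.13, adjusted p = 0.0108), and the call was lost without Act replicate 3 (0.0524) or CTRL replicate 3 (0.051). With all libraries and the replicate block, the adjusted p of Cacnb1 against CTRL was 0.00226 (limma). Against Act+FST its difference was 0.40 (SE 0.13, adjusted p = 0.0413), lost without Act replicate 1 (0.0614), Act replicate 2 (0.0676), Act replicate 3 (0.152), Act+FST replicate 1 (0.0612), Act+FST replicate 3 (0.158), FST replicate 1 (0.0505), FST replicate 2 (0.0557) or FST replicate 3 (0.0556). Cacnb3 had 15, 8 and 8 in CTRL, 22, 27 and 17 in Act, 15, 10 and 4 in Act+FST and 11, 8 and 10 in FST and was a DEG only against Act+FST, by 1.24 (SE 0.40, adjusted p = 0.0435), a call lost without Act replicate 1 (0.0992), Act replicate 2 (0.141), Act replicate 3 (0.0582), Act+FST replicate 2 (0.0665), Act+FST replicate 3 (0.164), CTRL replicate 2 (0.0527), CTRL replicate 3 (0.0527), FST replicate 1 (0.0536), FST replicate 2 (0.054) or FST replicate 3 (0.0589). Against CTRL it differed by 1.05 (SE 0.40, adjusted p = 0.0849), and it was called with the replicate block (adjusted p = 0.0254) or without Act+FST replicate 3 (0.0279). Cacnb4 differed from CTRL by -0.68 (SE 0.25, adjusted p = 0.073), and with the block its adjusted p was 0.00338 against CTRL and 0.00588 against Act+FST.

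Among the genes of store-operated calcium entry, Orai2 alone was called different. In this pathway Stim1 and Stim2 sense the calcium of the endoplasmic reticulum and open Orai pores in the plasma membrane when the store is empty. Orai1 stood at 314, 350 and 335 in CTRL and 325, 347 and 345 in Act, with an interval of the log2 difference of -0.11 to 0.17. The intervals were -0.13 to 0.11 for Orai3, -0.18 to 0.01 for Stim1 and -0.05 to 0.14 for Stim2. Orai2 had 370, 344 and 356 in CTRL, 487, 500 and 546 in Act, 389, 330 and 350 in Act+FST and 363, 370 and 332 in FST. Every Act library was above every other library, and the log2 difference was 0.52 (SE 0.07, adjusted p = 0.000209) to CTRL and 0.52 (SE 0.07, adjusted p = 0.000195) to Act+FST. Per kb of exon, Orai2 went from 58.7 in CTRL to 84.1 in Act, where Orai1 stood at 148 and Orai3 at 203.

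Of the IP3 receptors, which release calcium from the endoplasmic reticulum, Itpr2 alone was called between Act and CTRL. Itpr2, the most abundant of them per length, had 892, 723 and 860 in CTRL, 1183, 1022 and 1091 in Act, 947, 783 and 779 in Act+FST and 877, 713 and 766 in FST, higher in Act by 0.42 (SE 0.10, adjusted p = 0.0113) than in CTRL and by 0.40 (SE 0.10, adjusted p = 0.0136) than in Act+FST. The first call was lost without CTRL replicate 2 (0.0508) and the second without Act replicate 1 (0.0572), Act+FST replicate 2 (0.052) or Act+FST replicate 3 (0.0555). With all libraries and the replicate block, the adjusted p of Itpr2 against CTRL was 7.57e-06 (limma). Itpr1 had 412, 298 and 266 in CTRL, 297, 261 and 256 in Act, 574, 365 and 440 in Act+FST and 498, 317 and 377 in FST, with replicate 1 the highest in each group. It was lower in Act than in Act+FST by 0.74 (SE 0.19, adjusted p = 0.0164) and not called against CTRL (interval -0.66 to 0.18). The Act+FST mean of Itpr1 (460) was itself above that of CTRL (325), a difference called only with the replicate block. The call against Act+FST was lost without Act replicate 2 (0.0547), Act replicate 3 (0.0579) or Act+FST replicate 1 (0.0602). For Itpr3 the interval was wide (-0.57 to 0.40 against CTRL).

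**Figure D4:**
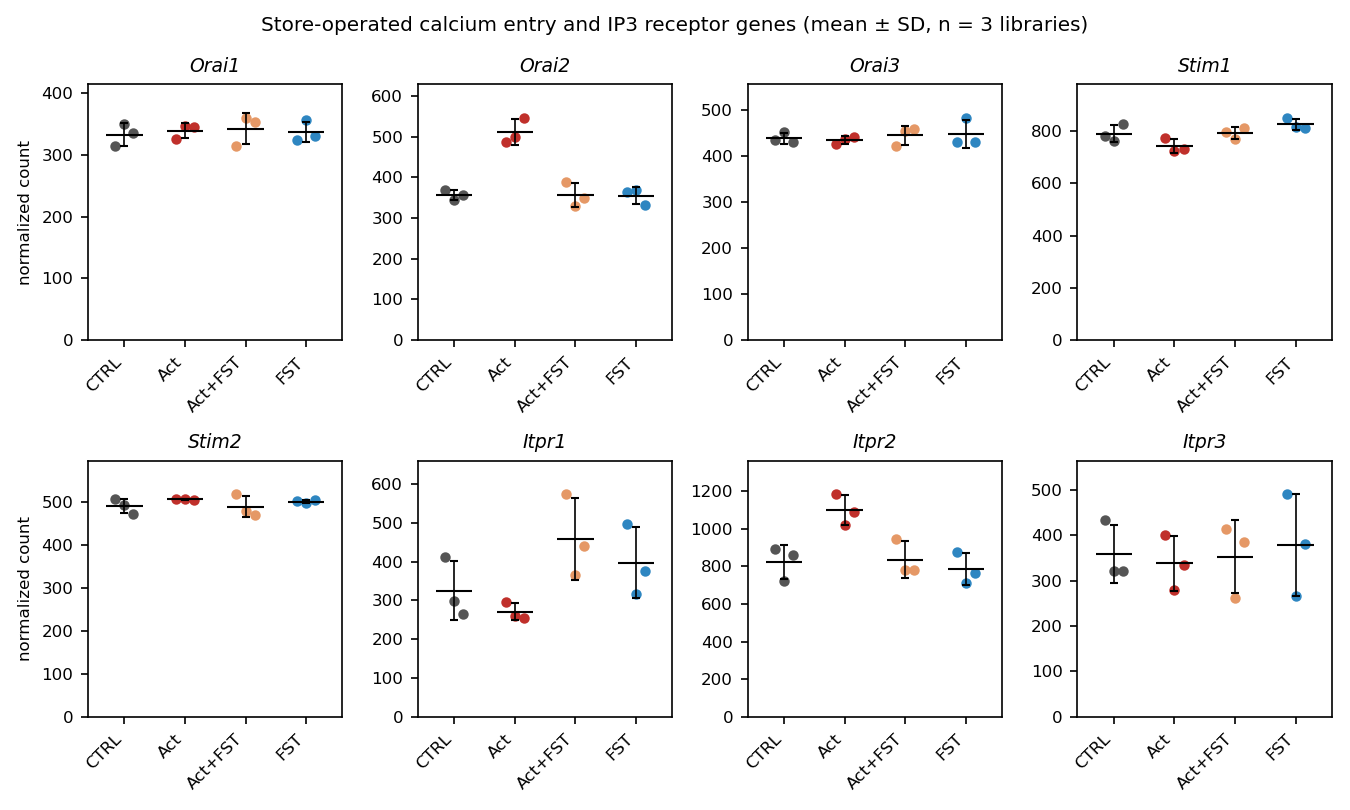
Normalized counts of the 8 store-operated calcium entry and IP3 receptor genes, 1 point per library with mean ± SD (n = 3) per group. The Act libraries stand above the other groups in Orai2 (487, 500 and 546) and Itpr2 (1183, 1022 and 1091), while those of Orai1, Orai3, Stim2 and Itpr3 overlap with CTRL.

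Chloride channel and CLIC genes included the most abundant members per kb, and 1 of 9 tested was higher and 1 lower in Act than in CTRL, 11.1% each and near the shares of all tested genes (10.3% and 9.97%). Clcn5, which encodes the endosomal chloride-proton exchanger, had 1347, 1211 and 1274 in CTRL, 954, 904 and 778 in Act, 1382, 1298 and 1209 in Act+FST and 1365, 1352 and 1375 in FST. The Act libraries were the 3 lowest, with a log2 difference of -0.54 (SE 0.07, adjusted p = 0.000197) against CTRL and -0.56 (SE 0.07, adjusted p = 0.000149) against Act+FST. Clcn4, the related exchanger, rose by 0.15 (SE 0.05, adjusted p = 0.0315) against CTRL, a call that was lost without Act replicate 1 (0.117), Act replicate 2 (0.09), CTRL replicate 2 (0.126) or CTRL replicate 3 (0.0634), and by 0.20 (SE 0.05, adjusted p = 0.0086) against Act+FST. With all libraries and the replicate block, the adjusted p of Clcn4 against CTRL was 0.00562 (limma). Clcn7 (interval -0.15 to 0.05), Clcn3 (-0.05 to 0.20), Clic1 (-0.20 to 0.03) and Clic4 (-0.15 to 0.17) were not called against CTRL. With the replicate block, the adjusted p against Act+FST was 0.0285 for Clcn7 (-0.11) and 0.0402 for Clcn3 (0.10). Clic5, a CLIC protein of the cell cortex, had 21, 16 and 27 in CTRL, 16, 10 and 13 in Act, 35, 24 and 50 in Act+FST and 35, 25 and 41 in FST and was lower in Act than in Act+FST by 1.38 (SE 0.30, adjusted p = 0.00585). Against CTRL it differed by -0.67 (SE 0.30, adjusted p = 0.148), with an adjusted p of 0.0225 with the block.

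Of the LRRC8 genes, which form volume-regulated anion channels, 3 of 4 rose slightly (75.0%, against 10.3% of all tested genes). Lrrc8d went from 878, 822 and 788 in CTRL to 1046, 1022 and 955 in Act, by 0.28 (SE 0.06, adjusted p = 0.00501). Lrrc8c went from 566, 470 and 477 to 707, 626 and 612, by 0.36 (SE 0.09, adjusted p = 0.0148), and Lrrc8b from 428, 382 and 373 to 489, 478 and 452, by 0.26 (SE 0.08, adjusted p = 0.0334). These 2 calls were lost without single libraries, that of Lrrc8c without Act replicate 1 (0.0642), CTRL replicate 2 (0.0628) or CTRL replicate 3 (0.0621), and that of Lrrc8b without Act replicate 1 (0.105), Act replicate 2 (0.0919), CTRL replicate 2 (0.103) or CTRL replicate 3 (0.125). With all libraries and the replicate block, the adjusted p against CTRL was 7.05e-06 for Lrrc8c and 0.000971 for Lrrc8b (limma). Against Act+FST the differences were 0.39 (SE 0.06, adjusted p = 0.000604) for Lrrc8d, 0.34 (SE 0.09, adjusted p = 0.02) for Lrrc8c and 0.32 (SE 0.08, adjusted p = 0.0126) for Lrrc8b. Here Lrrc8c lost its call without Act replicate 1 (0.0848), Act+FST replicate 2 (0.0711) or Act+FST replicate 3 (0.0784) and Lrrc8b without Act+FST replicate 2 (0.0516). Lrrc8a, the subunit that every such channel needs, stood at 162, 173 and 167 and 168, 158 and 190 and was not called (interval -0.15 to 0.22). Of its exon bases 66.2% also belong to another gene model on the same strand, and reads lying on several genes had been left out of the counts.

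Among the anoctamins, Ano7, a member known from prostate, had 7, 8 and 5 in CTRL, 33, 42 and 55 in Act, 9, 8 and 10 in Act+FST and 9, 5 and 8 in FST. Act was apart from all other libraries, with log2 differences of 2.52 (SE 0.29, adjusted p = 6.31e-05) to CTRL and 2.12 (SE 0.29, adjusted p = 0.00023) to Act+FST. Ano6, the calcium-activated lipid scramblase and channel of immune cells, had 125 normalized counts per kb in CTRL beside 1.67 for Ano7. It stood at 1587, 1487 and 1535 in CTRL and 1572, 1517 and 1398 in Act and was not called (interval -0.15 to 0.07). Ano8, which tethers endoplasmic reticulum and plasma membrane, was not called either (interval -0.23 to 0.12). Ano10 differed by -0.11 (SE 0.05, adjusted p = 0.188) from CTRL, and it was called lower in Act without Act replicate 1 (0.0176), and against Act+FST without Act replicate 1 (0.0222).

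Among sodium channel genes, Scn3b, a beta subunit that modulates pores and acts in cell adhesion, fell. It had 273, 289 and 327 in CTRL, 166, 156 and 125 in Act, 356, 313 and 402 in Act+FST and 325, 320 and 376 in FST, with every Act library below the others. Its log2 difference was -0.99 (SE 0.12, adjusted p = 9.24e-05) to CTRL, just short of 2-fold and past it without Act replicate 1 (-1.08), Act replicate 2 (-1.03), CTRL replicate 1 (-1.05) or CTRL replicate 2 (-1.01), and -1.26 (SE 0.12, adjusted p = 1.56e-05) to Act+FST. Scn2b was low and not called (interval -1.21 to 0.65).

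Hvcn1 had 922, 890 and 897 in CTRL, 1079, 1048 and 1088 in Act, 902, 919 and 988 in Act+FST and 888, 942 and 914 in FST. The Act libraries were the 3 highest, and the rise of 0.25 (SE 0.04, adjusted p = 0.00127) against CTRL and 0.20 (SE 0.04, adjusted p = 0.00524) against Act+FST was small beside its level. Of its exon bases 44.2% overlap with genes on the opposite strand, and the sources used here do not give the strand setting of the counting. Piezo1 stood at 1728, 1526 and 1567 in CTRL and 1614, 1468 and 1463 in Act and was not called (interval -0.24 to 0.07). Its overlap with the opposite strand was 24.6% of exon bases, that of Cacnb4 16% and that of Clcn4 11.5%.

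Several members lie beside a relative in the genome, and some of these neighbours moved in the same direction. Kcnj9 and Kcnj10 face away from each other on chromosome 1, 11891 bases apart, and both rose, with log2 differences to CTRL of 3.14 and 2.30. Mcoln3 (chr3:146117450-146141806, plus strand) and Mcoln2 (chr3:146149833-146195513, plus strand) are 8026 bases apart and both fell, by 1.02 and 0.47. Lrrc8b, Lrrc8c and Lrrc8d follow each other on chromosome 5 with gaps of 29313 and 86950 bases, and all 3 rose, while Lrrc8a on chromosome 2 was not called. Kcna3 rose, and Kcna2, 63075 bases away and at 24, 13 and 15 in CTRL and 28, 9 and 13 in Act, was not called (interval -1.42 to 1.11). Kcnj16 and Kcnj2, 38195 bases apart on chromosome 11, differed from CTRL in opposite directions, by -0.83 and 0.19. Neither was called in the main model, and both were with the replicate block (limma, adjusted p = 0.0277 and 0.0123). Scn2b was not called, and Scn4b, 8324 bases away, was under the filter. On chromosome X, Cacna1f fell and Kcnd1, 187092 bases away with 11 listed genes between, rose. Clcn5, 287724 bases from Cacna1f on its other side with 7 listed genes between, fell as Cacna1f did. Whether neighbours shared direction more often than other pairs was not tested.

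**Figure D5:**
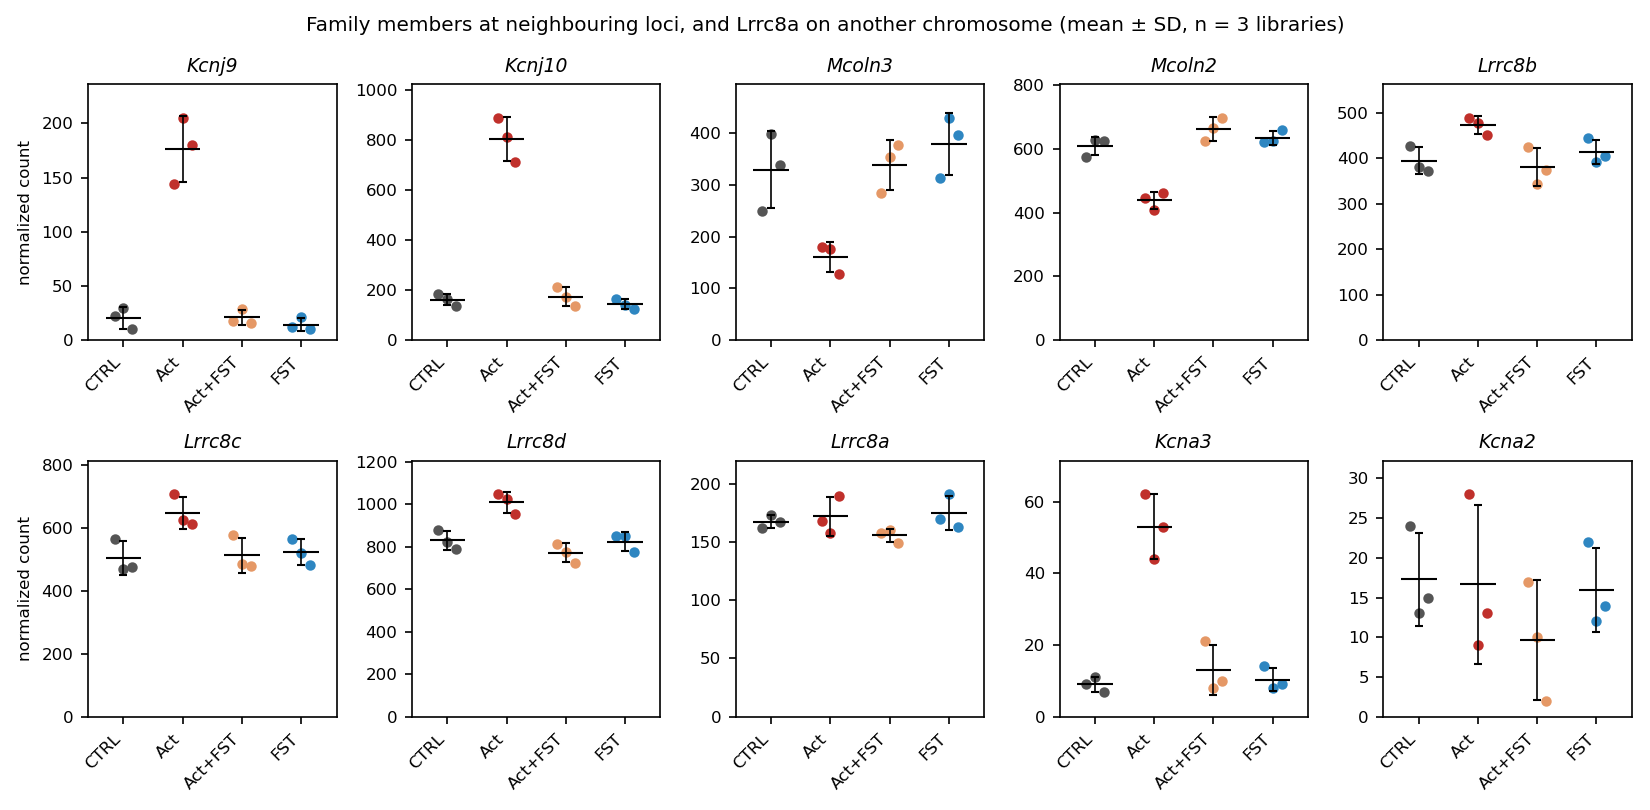
Normalized counts of neighbouring family members and of Lrrc8a, which lies on another chromosome, 1 point per library with mean ± SD (n = 3) per group. Act is above the other groups for Kcnj9, Kcnj10, Kcna3 and Lrrc8b to Lrrc8d and below them for Mcoln3 and Mcoln2, and it overlaps with them for Lrrc8a and Kcna2.

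With FST288 given beside activin A, no ion channel gene was called different from control cells. Against Act+FST, 21 members were higher in Act (31.3% of the 67, against 11.1% of all tested genes) and 15 lower (22.4% against 10.2%). Of these, 10 higher (14.9% against 2.72%) and 7 lower (10.4% against 3.11%) were DEGs. Between Act+FST and CTRL, limma called 0 of 67 members (0.0% of all tested genes), with log2 differences from -1.14 to 0.71. At an unadjusted p under 0.05 there were 4 of the 67, against 655 of the 14318 genes tested. For 53 of the 67 the 95% interval lay within 2-fold, a share that was not computed over all tested genes. With the replicate block, Act+FST exceeded CTRL in Itpr1 (0.50, adjusted p = 0.0308) and was below it in Kcnj2 (-0.26, adjusted p = 0.0485). Comparisons of Act with CTRL and with Act+FST share the Act libraries, so their likeness is no independent evidence.

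FST288 alone gave no called difference either. Limma called 0 of 67 members between FST and CTRL (0.0% of all tested genes). At an unadjusted p under 0.05 there were 0 of the 67, against 299 of the 14318 genes tested. With the replicate block 0 members were called and 5 had an unadjusted p under 0.05, against 700 of the 14318. Differences ran from -0.79 for Scn2b to 0.64 for Clic5, and 56 of the 67 intervals lay within 2-fold, again without a share over all tested genes. The effect of activin A without FST288 was also tested against its effect in the presence of FST288, as an interaction. It differed for 18 members (26.9%, against 6.74% of all tested genes), and for 31 members, the 18 among them, with the replicate block (46.3%, against 16.3% of all tested genes with the block). The largest such differences in log2 effect were 3.72 (adjusted p = 0.00963) for Kcnq3, 3.65 (adjusted p = 0.0028) for Kcnip3 and -3.10 (adjusted p = 0.00623) for Kcnq1. For Kcnd1 the adjusted p of the interaction was 0.0525 and with the block 0.0116.

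The 18 members under the filter had means from 0.75 to 4.08 and no value above 13, so changes in them could not be judged at this depth. They were 7 potassium channel genes, 3 TRP genes, 3 calcium channel subunits, 2 chloride channel genes and 3 sodium channel genes. The calcium channel subunit genes Cacng8 and Cacnb2, singled out after their values were seen, were highest in Act. Cacng8 had 0, 0 and 0 in CTRL and 8, 2 and 6 in Act, and Cacnb2 1, 2 and 2 and 5, 13 and 8.

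Genes that work beside these channels, from a list of 31 pumps, exchangers and calcium signalling proteins, were higher in Act than in CTRL in 5 cases (16.1%, against 10.3% of all tested genes) and lower in 3 (9.68% against 9.97%). The replicate block gave 11 higher and 4 lower, against 16.3% and 15.2% of all tested genes, with Atp2a2, Rcan1, Slc12a2, Nfatc1, Nfatc3 and Slc8b1 gained as higher and Atp1b3 as lower. Atp2b4, a plasma membrane calcium pump that exports calcium, was the 1 DEG among them, with 108, 115 and 96 in CTRL, 327, 303 and 290 in Act and 130, 98 and 71 in Act+FST. It rose by 1.52 (SE 0.20, adjusted p = 0.000214) on the log2 scale, and the Act libraries stood clear of all others. Stimate, an endoplasmic reticulum protein that promotes Stim1 function, rose by 0.61 (SE 0.09, adjusted p = 0.000394), and the sodium-calcium exchanger Slc8a1 by 0.53 (SE 0.11, adjusted p = 0.00392). Atp2a3, the store-filling pump SERCA3, had 506, 582 and 654 in CTRL and 295, 279 and 309 in Act, a difference of -0.97 (SE 0.21, adjusted p = 0.00549). The potassium-chloride cotransporter Slc12a7 differed by -0.35 (SE 0.04, adjusted p = 2.98e-05). The median of the 31 was 0.05, against 0.00 over all tested genes.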

How the data were processed

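RNA-seq covered 12 BMDM libraries, 3 per group, sequenced as single-end reads from a stranded mRNA kit. The authors trimmed reads (Trimmomatic 0.39), aligned them to mm10 (STAR 2.7.9a) and counted them per gene with featureCounts 2.0.2, without reads that fell on several genes or positions. The deposited signal is the count of reads per gene that the authors divided by a factor for each library and then rounded, with totals of 5643708 to 5955400 per library, so that original depths are not shown. A count test does not apply to such values.

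Here limma 3.58.1 in R 4.3.3 (moderated, with a mean-variance trend, two-sided) was applied to log2(normalized count + 1) of genes with a mean of at least 5. One model with 4 group means held all 12 libraries, and p-values were adjusted over 14318 genes. This main model leaves out the replicate number, so its SEs and intervals also hold the spread between replicate numbers. All adjusted p-values in the text are limma's, and the model was tested on simulated data first. The members, gene lists and rules were chosen with earlier results of these data known. Named were all member DEGs, the 3 members highest per kb in each class, and a list of channels known in macrophages. A few further members whose call changed with a setting were named after their values were seen, as were called calcium, chloride and potassium channel genes outside the rule.

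Values of 3 genes that the rule names are not reported here.

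Replicate numbers come from the labels. Over 18 pairs of same-numbered libraries, deviations from the group means correlated at 0.157 to 0.481, so the numbers were taken to pair the libraries. The mean over 36 pairs with other numbers was −0.155. Centring on the group means makes that value follow from the first, so it is no separate reference. The text gives blocked values where they change the call of a member or of a marker named, and by count for the other lists. They are also given for reported calls against CTRL that were lost without single libraries. Alternatives were the block, other pseudocounts (0.5 and 5), no filter or a mean of at least 50, other scalings, only the libraries compared, and leaving out each library. Gene coordinates and exon lengths are from GENCODE M21 (GRCm38), which held all 85 members. Promoter sequences are RefSeq's, read with Python 3.11.15.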

Additional observations from a re-analysis of the deposited data

Results flagged for a closer look

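The effect of activin A without FST288 differed from its effect with FST288 in 16 named members, by a limma test of the interaction. Over all tested members it differed for 18 (26.9%, against 6.74% of all tested genes). Many of the members were named as DEGs of comparisons that share libraries with the interaction, so these calls are not independent of that choice. The values below are differences of log2 effects, without minus with FST288, and the adjusted p of each is at most 0.05. It was positive in 10, with 3.72 (SE 0.74) for Kcnq3, 3.65 (SE 0.58) for Kcnip3, 2.60 (SE 0.53) for Kcnj9, 2.23 (SE 0.40) for Ano7, 2.21 (SE 0.48) for Kcna3, 2.04 (SE 0.22) for Kcnj10, 0.88 (SE 0.11) for Trpm2, 0.82 (SE 0.20) for Cacna1d, 0.51 (SE 0.10) for Orai2 and 0.38 (SE 0.08) for Lrrc8d. It was negative in 6, with -3.10 (SE 0.57) for Kcnq1, -2.63 (SE 0.50) for Cacna1b, -1.38 (SE 0.30) for Kcnab1, -1.06 (SE 0.17) for Scn3b, -0.53 (SE 0.08) for Mcoln2 and -0.47 (SE 0.10) for Clcn5. The interaction uses all 4 groups, and the control groups of both effects showed no called difference from each other. With the replicate block each of these calls held, with adjusted p-values from 3.27e-08 to 0.00334. Without the block, the call of Cacna1d was lost (adjusted p in parentheses) without Act replicate 1 (0.0622), Act replicate 2 (0.0507), Act+FST replicate 2 (0.0544), Act+FST replicate 3 (0.0544), CTRL replicate 2 (0.066), CTRL replicate 3 (0.0647) or FST replicate 1 (0.0619), and that of Lrrc8d without CTRL replicate 3 (0.0529) or FST replicate 1 (0.0502).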

How the results depend on the processing

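No called difference of Act to CTRL or Act+FST turned its direction in a gene that the rule names, under an alternative that was run. The sign changed in 35 fits of 12 such genes that were called in neither fit, with reported differences of at most 0.09 in size, and in Kcna2, which ranged from -0.59 to 0.18 on leaving out single libraries against CTRL. A filter at a mean of at least 50, which leaves fewer genes tested, lowered the counts. DEGs higher than CTRL went from 9 to 3 and lower from 5 to 1, DEGs against Act+FST from 10 to 3 and from 7 to 2, and members lower than CTRL from 11 to 7. A pseudocount of 5 left 3 DEGs lower than CTRL. With the replicate block, which uses the pairing of libraries, 22 members were higher and 15 lower than CTRL, 2 differed between Act+FST and CTRL, and the interaction was called for 31 instead of 18. The shares of all tested genes rose with the block too, to 16.3%, 15.2%, 0.559% and 16.3%. Beside the changes given with it above and those of the interaction, the block changed no call of a named gene. Leaving out each library in turn gave 14 to 21 members higher and 11 to 13 lower than CTRL, with 8 to 10 and 3 to 6 DEGs. Without Act replicate 3 there were 3 DEGs lower than CTRL, since Mcoln3 and Kcnab1 went under 2-fold. Against Act+FST it gave 16 to 21 higher and 11 to 16 lower, with 8 to 11 and 5 to 7 DEGs, and for the interaction 14 to 21 members. Act+FST and FST gave 0 calls against CTRL each time. With quantile normalization Trpv2 (adjusted p = 0.0369), Stim1 (adjusted p = 0.0358) and Kcnab2 (adjusted p = 0.0328) became lower in Act than in CTRL, and against Act+FST Stim1 was gained (adjusted p = 0.0255) and Kcnk13 lost (adjusted p = 0.0513). With only the libraries compared, Cacnb4 was gained against CTRL (adjusted p = 0.0436) and Clcn4 lost (adjusted p = 0.0685), and against Act+FST Cacnb3 (adjusted p = 0.0878), Kcnab2 (adjusted p = 0.0643) and Trpv2 (adjusted p = 0.0699) were lost. Cacnb3 was also lost there without the filter (adjusted p = 0.0539). The cause of these changes was not tested. Genes near the filter are limited by counting error, and low genes carry an understated fold on this scale.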

Other observations

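A list of 32 channels and channel-like proteins whose symbols the patterns do not cover was also read. Of the 26 tested, 5 were higher in Act than in CTRL (19.2%, against 10.3% of all tested genes) and 2 lower (7.69% against 9.97%), with 0 DEGs, against 2.58% and 3.09% of all tested genes. The replicate block gave 7 higher and 6 lower, against 16.3% and 15.2%, and Ryr1, the calcium release channel of skeletal muscle, was then called at a log2 difference of -1.18 (adjusted p = 0.0164, 0.0674 without the block). Best1, a calcium-activated chloride channel known from retinal epithelium, had 97, 146 and 93 in CTRL, 207, 250 and 194 in Act, 91, 128 and 97 in Act+FST and 106, 116 and 99 in FST. It differed by 0.97 (SE 0.18, adjusted p = 0.00189) from CTRL and 1.04 (SE 0.18, adjusted p = 0.00113) from Act+FST, on the log2 scale, and each Act library was above all others. P2rx1, an ATP-gated channel, was lower in Act (7, 10 and 8) than in Act+FST (21, 15 and 29), at -1.25 (SE 0.35, adjusted p = 0.0215), and not called against CTRL at -0.73 (SE 0.35, adjusted p = 0.168). Gja1, the gap junction protein connexin 43, differed by 0.58 (SE 0.19, adjusted p = 0.045) from CTRL, and its Act+FST libraries (80, 59 and 58) overlapped with Act (74, 74 and 63). Panx1, the ATP release channel pannexin 1, had 294, 293 and 281 in CTRL and 367, 374 and 411 in Act, a difference of 0.41 (SE 0.07, adjusted p = 0.000862). Tmc8, which forms a complex with zinc transporters, fell to 193, 200 and 199 from 284, 281 and 294, a difference of -0.54 (SE 0.09, adjusted p = 0.000876), and Ttyh2 differed by -0.24 (SE 0.06, adjusted p = 0.0147). The ATP-gated P2rx7 and P2rx4 were not called, with 1764, 1548 and 1636 in CTRL and 1744, 1694 and 1677 in Act for P2rx7. The median over the 26 was 0.00, as over all tested genes.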
